A study of Homo sapiens with 6 samples.

Results

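The transcripts of 10 genes of the WNT pathway were followed in H9 cells after NPM1 was lowered by RNA interference. The genes were taken by symbol from a table of 62703 genes, and all 10 were found once. They encode the receptors FZD7 and FZD8, the coactivator CTNNB1 (β-catenin), the DNA-binding factors LEF1, TCF7, TCF7L1 and TCF7L2, and the feedback genes AXIN2, SP5 and DKK1. H9 is an established human embryonic stem cell line, and the labels call the cells human pluripotent stem cells. There were 2 groups: siNPM1, 3 libraries of H9 cells given a small interfering RNA against NPM1 (its protein is also named B23), and siControl, 3 libraries of H9 cells given a control treatment. The design calls the libraries of a group biological replicates, and neither the control sequence nor the time after treatment is given in the sources used here. RNA alone was measured, in cultures of a single line, so fewer expressing cells and less RNA per cell cannot be told apart.

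In the canonical WNT pathway, a WNT ligand bound to a frizzled receptor and its LRP co-receptor halts the destruction complex, which otherwise marks β-catenin for degradation. β-catenin then enters the nucleus and joins DNA-bound TCF/LEF factors, which repress their targets in its absence. TCF7L1 is known mainly as a repressor in pluripotent cells, whereas LEF1 and TCF7 are known mainly as activators. AXIN2, SP5 and DKK1 are induced by the pathway and restrain it, so their transcripts serve as readouts of its activity. In human pluripotent cells, strong WNT signalling is known for driving exit towards primitive streak fates.

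TCF/LEF factors recognise a short DNA word, here taken in 4 forms of 7 bases. These forms, CTTTGAA, the variant CTTTGAT, the variant CTTTGTA and the variant CTTTGTT, were searched on both strands in the 250 bases before each RefSeq transcript start (GRCh38.p14), where 8 of the 10 genes were matched, and AXIN2 and FZD7 are only named. Among all 35116 such windows, 12.0% held at least 1 of these words, 1.21% held 2 or more and 0.122% held 3 or more. The windows of 4 genes are shown, with these words in capitals: a pair of feedback genes whose windows hold several words, beside a receptor gene and the repressor gene TCF7L1, whose windows hold none.
SP5, chr2:170715087-170715336, plus strand: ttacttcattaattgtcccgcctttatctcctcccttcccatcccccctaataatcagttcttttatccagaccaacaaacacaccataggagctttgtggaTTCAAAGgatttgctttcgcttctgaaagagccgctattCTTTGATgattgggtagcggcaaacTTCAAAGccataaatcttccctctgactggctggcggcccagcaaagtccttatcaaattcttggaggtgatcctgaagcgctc
DKK1, chr10:52314031-52314280, plus strand: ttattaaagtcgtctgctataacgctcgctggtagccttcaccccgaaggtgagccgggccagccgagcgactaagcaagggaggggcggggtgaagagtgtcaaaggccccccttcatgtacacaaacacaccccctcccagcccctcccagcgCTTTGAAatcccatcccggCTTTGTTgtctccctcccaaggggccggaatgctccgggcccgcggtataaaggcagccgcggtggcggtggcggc
FZD8, chr10:35642297-35642546, minus strand: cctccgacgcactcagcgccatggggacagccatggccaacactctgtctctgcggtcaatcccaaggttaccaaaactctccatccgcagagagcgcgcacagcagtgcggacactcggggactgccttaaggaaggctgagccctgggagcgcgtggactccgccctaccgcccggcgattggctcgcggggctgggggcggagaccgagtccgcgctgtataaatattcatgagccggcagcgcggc
TCF7L1, chr2:85133142-85133391, plus strand: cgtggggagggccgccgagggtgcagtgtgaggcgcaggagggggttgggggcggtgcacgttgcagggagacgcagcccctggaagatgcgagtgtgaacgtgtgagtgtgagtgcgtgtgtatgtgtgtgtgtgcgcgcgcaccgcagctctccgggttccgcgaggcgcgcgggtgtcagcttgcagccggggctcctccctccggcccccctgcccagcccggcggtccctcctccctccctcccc
SP5 held 3 words, at 148, 109 and 84 bases before its start, the first and last of them read on the opposite strand. DKK1 held 2, at 95 and 76 bases before its start. A further word stood in 1 of the 2 windows of TCF7 and in 1 of the 3 windows of TCF7L2. The starts of these windows are internal, 8907 and 176383 bases inside the outermost coding transcript. The single window of CTNNB1 held 0 and that of LEF1 held 0. The starts of the CTNNB1 and LEF1 windows are 4764 and 2655 bases inside the outermost coding transcript of the gene. Both windows lie wholly in annotated exons and are not shown. These matches describe the letters in the windows only.

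The labels were checked on NPM1 itself, which stood at 173, 165 and 238 TPM in siNPM1 replicates 1 to 3 and at 3109, 2969 and 3132 TPM in siControl replicates 1 to 3, a difference of -4.01 on the log2(TPM + 1) scale (limma, adjusted p = 0.000852). TPM is a share of all transcripts, scaled by transcript length within each library, so levels can be compared between genes but the sequencing depth is unknown. The pluripotency markers POU5F1, SOX2, NANOG, LIN28A, DNMT3B, TDGF1 and L1TD1 were all high, with summed levels of 3330 to 3883 TPM in siNPM1 and 4126 to 4224 TPM in siControl. POU5F1 (1375 to 1393 against 1706 to 2266 TPM), NANOG and TDGF1 were lower in siNPM1 without overlap between the groups. SOX2, LIN28A, DNMT3B and L1TD1 overlapped. Of all genes averaging 1 TPM or more, 8.55% were lower without overlap. Primitive streak markers were low in both groups, their 6 genes summing to 4.87 to 6.17 TPM in siNPM1 and 3.45 to 9.02 TPM in siControl. The 6 amnion and trophoblast markers summed to 6.25 to 19.2 TPM in siNPM1 and 4.20 to 4.41 TPM in siControl, with CGA at 0 in each library. The 5 endoderm markers summed to 10.1 to 23.4 TPM in siNPM1 and 4.59 to 6.65 TPM in siControl, while SOX17 and GATA6 did not exceed 0.030 and 0.040 TPM. The 4 neuroectoderm markers summed to 1.57 to 8.62 TPM in siNPM1 and 1.45 to 2.36 TPM in siControl. siNPM1 replicate 1 alone set the highest of these 3 ranges, with TFAP2A at 9.18, HHEX at 23.1 and PAX6 at 7.87 TPM, and it scored 48.7 on the second principal component, beside -32.2 to 2.60 in the other libraries. The 4 neural crest markers summed to 6.31 to 7.39 TPM in siNPM1 and 5.95 to 9.12 TPM in siControl. The 5 fibroblast markers summed to 133 to 348 TPM in siNPM1 and 401 to 430 TPM in siControl, with LUM at 0 and COL3A1 at 0.020 TPM or less. Nearly all of this came from THY1 and the collagen genes COL1A1 and COL1A2. The lowest sum was again that of siNPM1 replicate 1, where THY1 was at 90.4 TPM. THY1 was lower in siNPM1 without overlap, whereas COL1A1 was higher without overlap (14.5 to 18.8 against 5.72 to 9.70 TPM) and COL1A2 overlapped. The part of these cell types in the results was not tested. siControl replicate 2 stood apart from siControl replicates 1 and 3: mitochondrially encoded protein transcripts made up 17.0% to 19.8% of the total in siNPM1, 22.3% in siControl replicate 2, and 8.86% and 8.82% in siControl replicates 1 and 3. On the first principal component, with 54.4% of the variance, siControl replicate 2 scored -28.1. The siNPM1 libraries scored -32.2 to -30.4 there, and siControl replicates 1 and 3 scored 59.9 and 61.7. The differences of the tested members are therefore also given against siControl replicates 1 and 3 and against siControl replicate 2 alone.

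With all 6 libraries, 0 of the 8 genes that could be tested passed the threshold (limma on log2(TPM + 1), Benjamini-Hochberg adjusted p under 0.05 over the 15768 genes averaging 1 TPM or more). Across all tested genes 0.0254% passed, so the count for these genes is at the background. At an unadjusted p under 0.05, LEF1, FZD7, FZD8 and TCF7 were higher and TCF7L1 was lower in siNPM1, where the background was 13.2% higher and 6.45% lower. The members were chosen with earlier results of these data known, so their counts beside the backgrounds are descriptions only. SP5 and DKK1 lay under the filter and were not tested. LEF1 passed the filter only through its level in siNPM1. With 3 libraries a group, the smallest two-sided p of an exact permutation test is 0.1, which LEF1, TCF7, TCF7L1, FZD7 and the untested SP5 reached. These are the members whose groups did not overlap, as was so for 24.8% of all tested genes.

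**Figure D1:**
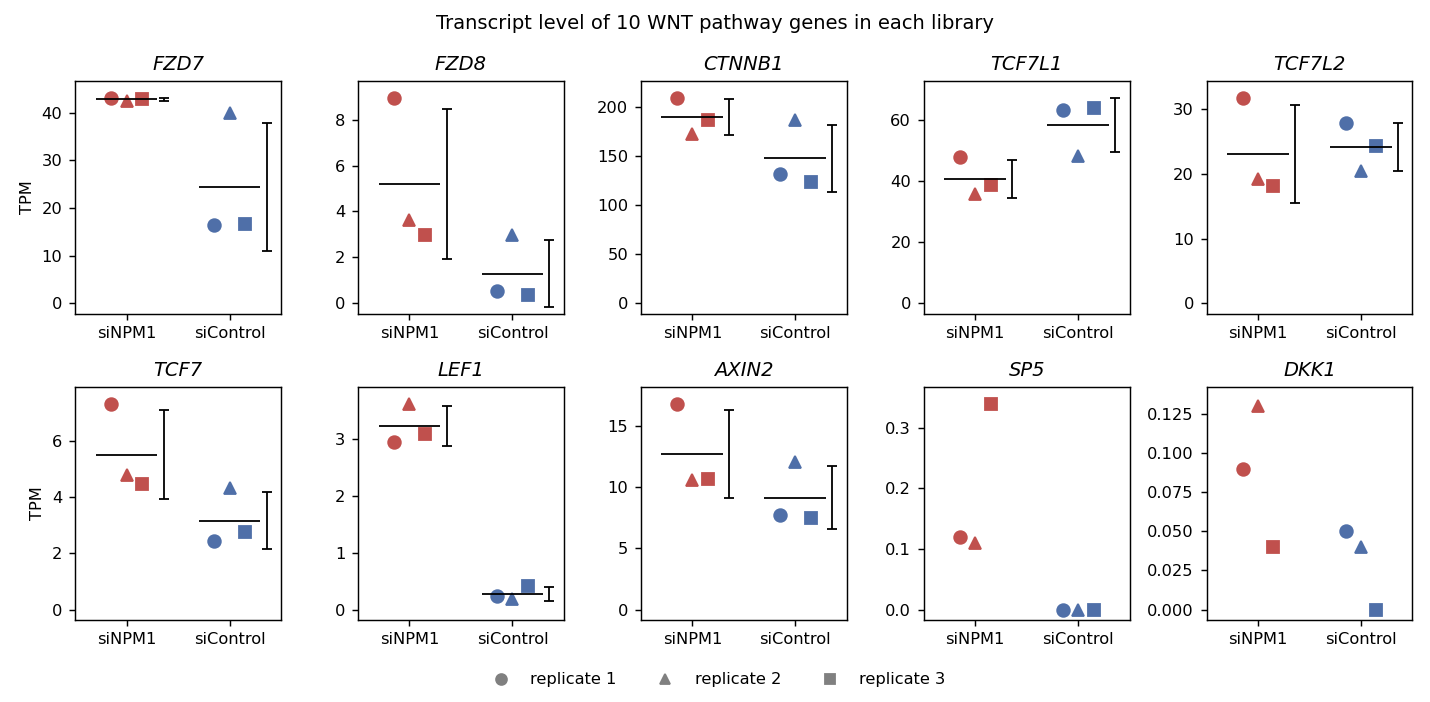
TPM of each of the 10 genes in each library, siNPM1 in red and siControl in blue, with a marker shape for each replicate number. Lines are means and bars SD (n = 3), left out for SP5 and DKK1, which are listed at 0 in some libraries. The LEF1 groups are far apart, and for FZD7 and CTNNB1 siControl replicate 2 sits with the siNPM1 libraries.

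LEF1 showed the clearest separation among the 10 genes. LEF1 (ENSG00000138795, chromosome 4, 108047545 to 108168956, minus strand, GRCh38) encodes a TCF/LEF factor that is itself a WNT target. It stood at 2.96, 3.63 and 3.10 TPM in siNPM1 and at 0.240, 0.180 and 0.410 TPM in siControl. The siNPM1 libraries all lay above all siControl libraries, and siControl replicate 2 was the lowest of the 6. The mean TPM in siNPM1 was 11.7 times that in siControl, from a control level under 1 TPM whose depth is unknown. Adding 1 TPM before taking logs shrinks the change of low genes. On the log2(TPM + 1) scale the difference was 1.73 with a standard error of 0.214 (95% interval 1.22 to 2.24, limma, adjusted p = 0.1002). With a pseudocount of 0.1 in place of 1 it was 3.19 (limma, adjusted p = 0.124). It was 1.67 against siControl replicates 1 and 3 (limma, adjusted p = 0.00315) and 1.84 against siControl replicate 2 alone (95% interval 1.29 to 2.39, limma, adjusted p = 0.277). The size was therefore nearly the same with and without the library that stood apart. LEF1 passed the filter only through siNPM1, so its direction and adjusted p-values are descriptions and carry no weight as tests. The antisense gene LEF1-AS1, which overlaps the 5′ end of LEF1, was at 0.210, 0.130 and 0 TPM in siNPM1 and at 0, 0.050 and 0 TPM in siControl. GENCODE 29 lists 6 protein-coding transcripts of LEF1, which gene-level values do not separate.

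TCF7L1, the repressor of the family, was the only member other than TCF7L2 with a negative difference. TCF7L1 (ENSG00000152284, chromosome 2, 85133410 to 85310388, plus strand) had 47.6, 35.6 and 38.6 TPM in siNPM1 and at 63.2, 48.1 and 63.7 TPM in siControl. The groups did not overlap, although siNPM1 replicate 1 lay just under siControl replicate 2. Across all tested genes, 8.55% were lower and 16.2% higher in siNPM1 without overlap between the groups. The difference was -0.51 on the log2(TPM + 1) scale (95% interval -0.91 to -0.11, limma, adjusted p = 0.226). It was -0.64 against siControl replicates 1 and 3 (limma, adjusted p = 0.0196) and -0.25 against siControl replicate 2 alone (95% interval -0.81 to 0.31, limma, adjusted p = 0.670).

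TCF7 (ENSG00000081059, chromosome 5, 134114711 to 134151865, plus strand) is best known from T cells. Its level was 7.31, 4.76 and 4.44 TPM in siNPM1 and at 2.42, 4.32 and 2.74 TPM in siControl. The siNPM1 libraries were all higher, with siControl replicate 2 only slightly below siNPM1 replicate 3. The difference was 0.65 (95% interval 0.017 to 1.27, limma, adjusted p = 0.249), against 0.84 without siControl replicate 2 (limma, adjusted p = 0.0367) and 0.26 against that replicate alone (limma, adjusted p = 0.780). The 3′ end of TCF7 overlaps SKP1 on the opposite strand, which stood at 359 to 407 TPM in siNPM1 and 416 to 470 TPM in siControl, and the strand setting of the counting is not given in the sources used here.

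TCF7L2 (ENSG00000148737, chromosome 10, 112950250 to 113167678, plus strand) is the family member best known from gut and metabolic tissues. It stood at 31.7, 19.2 and 18.1 TPM in siNPM1 and at 27.8, 20.4 and 24.2 TPM in siControl. The groups overlapped fully, with siNPM1 replicate 1 the highest and siNPM1 replicate 3 the lowest of the 6. The difference was -0.098 (95% interval -0.67 to 0.47, limma, adjusted p = 0.823). It was -0.21 against siControl replicates 1 and 3 (limma, adjusted p = 0.551), and its sign turned against siControl replicate 2 alone, at 0.13 (limma, adjusted p = 0.918).

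Shares within the family do not depend on how a library is scaled. TCF7L1 made up 53.1%, 56.3% and 60.0% of the summed TCF/LEF TPM in siNPM1 and 67.5%, 65.9% and 70.0% in siControl, that is 56.5% ± 3.46 and 67.8% ± 2.04 (SD, n = 3 each). Every siNPM1 library lay below every siControl library, siControl replicate 2 included. LEF1 made up 3.30%, 5.74% and 4.83% in siNPM1 and 0.256%, 0.247% and 0.450% in siControl. TCF7 made up 8.16%, 7.53% and 6.91% in siNPM1 and 2.58%, 5.92% and 3.01% in siControl. TCF7L2 overlapped, at 35.4%, 30.4% and 28.2% in siNPM1 and 29.7%, 27.9% and 26.6% in siControl. These shares were computed after the levels had been seen and are given without a test or a background from other gene families. They are also tied together, since a higher share of a gene lowers those of the others.

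**Figure D2:**
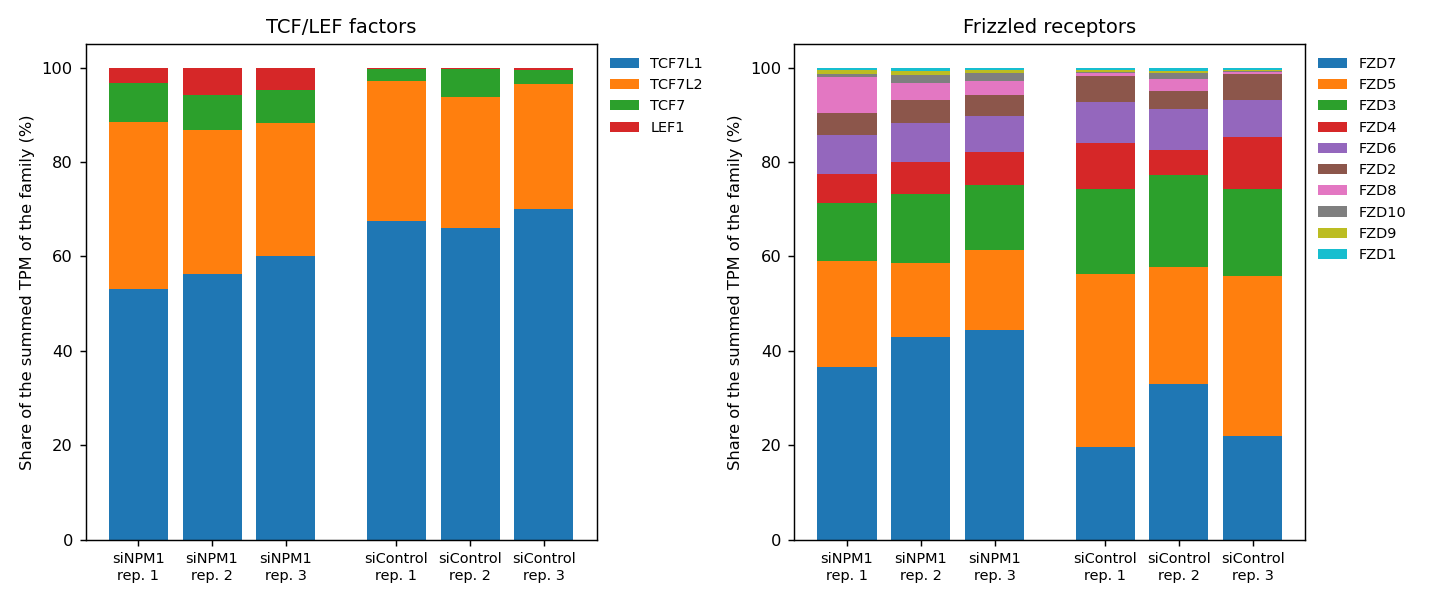
Share of each gene in the summed TPM of the 4 TCF/LEF genes (left) and of the 10 frizzled genes (right), in percent, for each library. TCF7L1 takes 53.1% to 60.0% in siNPM1 and 65.9% to 70.0% in siControl, and LEF1 is visible in the siNPM1 libraries but hardly in siControl.

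Among the receptors, FZD7 showed how much the outcome rests on siControl replicate 2. FZD7 (ENSG00000155760, chromosome 2, 202034587 to 202038445, plus strand) is the frizzled receptor best known from human pluripotent cells. It stood at 43.1, 42.4 and 42.8 TPM in siNPM1 and at 16.5, 39.9 and 16.7 TPM in siControl. The siNPM1 values were nearly identical, and siControl replicate 2 lay just under them while siControl replicates 1 and 3 were far lower. The difference was 0.91 (95% interval 0.13 to 1.69, limma, adjusted p = 0.237). It was 1.31 against siControl replicates 1 and 3 (limma, adjusted p = 0.00158) and 0.099 against siControl replicate 2 alone (95% interval -0.17 to 0.37, limma, adjusted p = 0.718). FZD7 has close paralogs in FZD1 and FZD2, and how the authors' counting treated reads shared between them is not given in the sources used here.

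FZD8 (ENSG00000177283, chromosome 10, 35638249 to 35642278, minus strand), a further frizzled receptor, was low and uneven. It stood at 8.96, 3.65 and 2.97 TPM in siNPM1 and at 0.530, 2.97 and 0.360 TPM in siControl. siNPM1 replicate 3 and siControl replicate 2 were tied, and siNPM1 replicate 1 was far above the rest. The difference was 1.49 (95% interval 0.25 to 2.73, limma, adjusted p = 0.234). Without siControl replicate 2 it was 1.98 (limma, adjusted p = 0.0196), against that replicate alone 0.52 (limma, adjusted p = 0.776), and without siNPM1 replicate 1 1.09 (limma, adjusted p = 0.376).

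The shares of the frizzled genes were likewise computed after the levels had been seen and are given without a test. FZD7 made up 36.6%, 42.9% and 44.4% of the summed TPM of the 10 frizzled genes in siNPM1 and 19.6%, 33.0% and 22.0% in siControl. FZD5, a receptor outside the 10 genes described, made up 22.4%, 15.7% and 17.0% in siNPM1 and 36.7%, 24.7% and 34.0% in siControl. FZD3, also outside the 10, made up 12.3%, 14.6% and 13.9% in siNPM1 and 17.9%, 19.6% and 18.3% in siControl. FZD8 made up 7.60%, 3.70% and 3.08% in siNPM1 and 0.629%, 2.46% and 0.473% in siControl. The shares of these 4 genes and of FZD9, under 1% throughout, did not overlap between the groups. No background over other gene families was computed for shares, so this count is a description only. Shares within a family are tied together, since a higher share of a gene lowers those of the others. In TPM, FZD7 and FZD9 did not overlap, but FZD5 and FZD8 did. FZD3 differed on the log2(TPM + 1) scale by -0.040 against siControl replicates 1 and 3 and by -0.71 against siControl replicate 2 alone. By share, siControl replicate 2 was the control nearest to siNPM1 for FZD7, FZD5, FZD8 and FZD9 and the farthest for FZD3. In TPM, the nearest control for FZD5 was siControl replicate 3.

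CTNNB1 (ENSG00000168036, chromosome 3, 41194741 to 41260096, plus strand) encodes β-catenin, which acts both in WNT signalling and in cadherin junctions and is controlled chiefly at the protein level. Its transcript stood at 209, 172 and 187 TPM in siNPM1 and at 132, 187 and 124 TPM in siControl. siControl replicate 2 lay within the siNPM1 range, and siControl replicates 1 and 3 lay below it. The difference was 0.38 (95% interval -0.043 to 0.80, limma, adjusted p = 0.282). It was 0.56 against siControl replicates 1 and 3 (limma, adjusted p = 0.0122) and 0.016 against siControl replicate 2 alone (95% interval -0.38 to 0.41, limma, adjusted p = 0.976). β-catenin protein was not measured here.

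Among the feedback genes, AXIN2 did not pass the threshold with all controls, nor with either subset of them. AXIN2 (ENSG00000168646, chromosome 17, 65528563 to 65561647, minus strand) encodes a scaffold of the destruction complex and is the most widely used readout of the pathway. It stood at 16.9, 10.6 and 10.7 TPM in siNPM1 and at 7.78, 12.1 and 7.53 TPM in siControl. The groups overlapped, since siControl replicate 2 lay above siNPM1 replicates 2 and 3. The difference was 0.43 (95% interval -0.18 to 1.04, limma, adjusted p = 0.358). It was 0.63 against siControl replicates 1 and 3 (limma, adjusted p = 0.0757), 0.033 against siControl replicate 2 alone (limma, adjusted p = 0.978) and 0.23 without siNPM1 replicate 1 (limma, adjusted p = 0.605).

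SP5 and DKK1, the genes whose windows hold several TCF/LEF words, were close to 0 in every library. SP5 (ENSG00000204335, chromosome 2, 170715351 to 170718078, plus strand) encodes a zinc finger factor that represses WNT targets. It was listed at 0.120, 0.110 and 0.340 TPM in siNPM1 and at 0 in each siControl library. Of all 17233 genes under the filter and above 0 in some library, 8.13% were higher and 2.25% lower in siNPM1 without overlap between the groups. DKK1 (ENSG00000107984, chromosome 10, 52314296 to 52318042, plus strand) encodes a secreted inhibitor of the LRP co-receptors. It was listed at 0.090, 0.130 and 0.040 TPM in siNPM1 and at 0.050, 0.040 and 0 TPM in siControl. DKK1 overlaps the antisense gene PRKG1-AS1, at 4.21 to 5.05 TPM in siNPM1 and 3.31 to 5.78 TPM in siControl, so its low values are uncertain. With no filter on low values, where 0.00303% of all genes passed, SP5 had a difference of 0.25 (limma, adjusted p = 0.351) and DKK1 of 0.077 (limma, adjusted p = 0.507). At levels this low and with unknown depth, a difference in DKK1 was not detectable.

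The pattern across controls was shared by most of the members. For TCF7, FZD7, FZD8, AXIN2 and CTNNB1, siControl replicate 2 and all siNPM1 libraries lay above siControl replicates 1 and 3, and for TCF7L1 they lay below them. Across all tested genes, 35.7% showed the first arrangement and 20.9% the second. Without siControl replicate 2, 6 of the 8 tested members passed (limma), 5 higher (LEF1, FZD7, FZD8, TCF7 and CTNNB1) and 1 lower (TCF7L1). Among all genes 37.0% passed there, 24.1% higher and 12.9% lower. Since the members were chosen with earlier results of these data known, the count is a description only. LEF1 passed the filter only through siNPM1, so its direction in this count carries no weight. Against siControl replicate 2 alone, 0 passed (limma), where 0.171% of all genes did, and LEF1 was the only member with an unadjusted p under 0.05 there. In that comparison the spread came from the siNPM1 libraries alone. A fit with estimated array weights, which gave siControl replicate 2 little weight, called 60.2% of all genes and all 8 tested members. Which of the siControl libraries is typical of H9 cells given the control treatment was not tested.

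**Figure D3:**
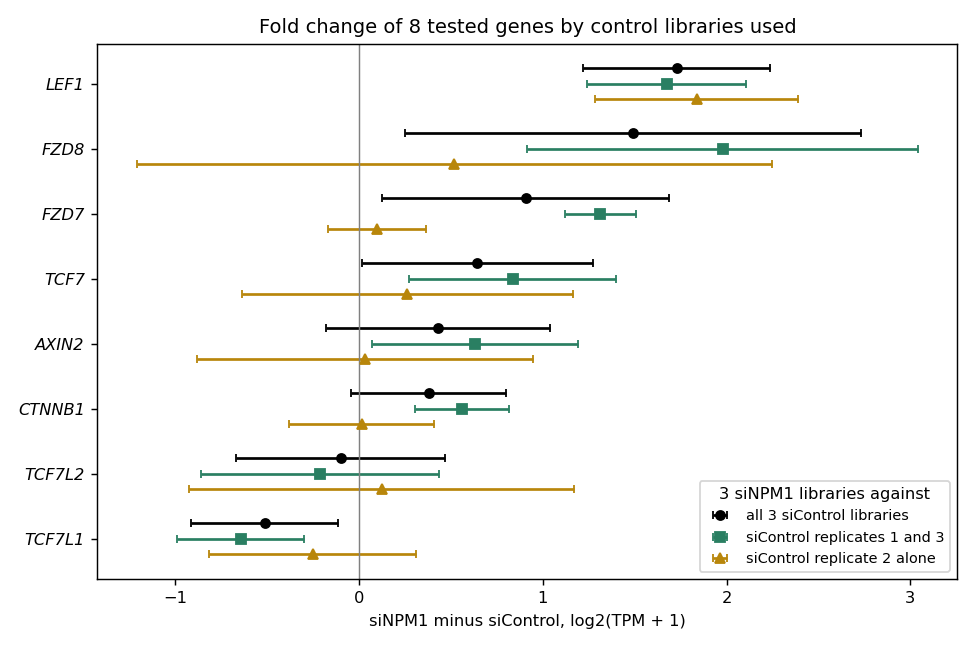
Difference between siNPM1 and siControl on the log2(TPM + 1) scale for the 8 tested genes, with limma's 95% interval, against all siControl libraries (black circles), siControl replicates 1 and 3 (green squares) and siControl replicate 2 alone (yellow triangles). LEF1 keeps a difference of 1.67 to 1.84 in all of them, while FZD7 ranges from 0.099 to 1.31.

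The median difference over all tested genes was 0.10, and -0.023 once each library was centred on its median. After centring, LEF1 was at 1.60, FZD8 at 1.37, FZD7 at 0.78, TCF7 at 0.52, AXIN2 at 0.31, CTNNB1 at 0.25, TCF7L2 at -0.22 and TCF7L1 at -0.64, so the signs were those given above.

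Levels spanned a wide range and kept nearly the same order in both groups. By mean TPM, CTNNB1 stood first in siNPM1 (189 ± 18.6) and in siControl (147 ± 34.3; SD, n = 3 each). In siNPM1 it was followed by FZD7 (42.8 ± 0.366), TCF7L1 (40.6 ± 6.26), TCF7L2 (23.0 ± 7.57), AXIN2 (12.7 ± 3.60), TCF7 (5.50 ± 1.57), FZD8 (5.19 ± 3.28) and LEF1 (3.23 ± 0.353). In siControl it was followed by TCF7L1 (58.3 ± 8.87), FZD7 (24.4 ± 13.4), TCF7L2 (24.1 ± 3.73), AXIN2 (9.14 ± 2.58), TCF7 (3.16 ± 1.02), FZD8 (1.29 ± 1.46) and LEF1 (0.277 ± 0.119). SP5 and DKK1 were last in both. Neighbours that overlapped were FZD7 with TCF7L1, TCF7 with FZD8 and FZD8 with LEF1 in siNPM1, and FZD7 with TCF7L2, TCF7 with FZD8 and FZD8 with LEF1 in siControl, as did SP5 and DKK1 in both groups.

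Of the other genes of the pathway, taken from 8 lists by role, 73 of 109 were tested and 0 passed in either direction (limma). Of these, 39 had a positive and 34 a negative difference, with a median of 0.030 beside 0.10 over all genes. Among these 73, FRZB, SFRP5, RSPO4 and FZD10 passed the filter only through siNPM1, and 0 only through siControl. The signs of these 4 genes carry no weight. At an unadjusted p under 0.05, 4 were higher and 1 lower, where 13.2% of all tested genes were higher and 6.45% lower. In 10 higher and 0 lower genes the groups did not overlap, a share of 13.7% beside 24.8% of all genes (16.2% higher and 8.55% lower). FRZB is in both counts of higher genes and SFRP5 and RSPO4 are in the second, where their direction carries no weight. The ligands and secretion factors were mostly under the filter, with 5 of 21 tested and a median of 0.039. WNT3, a ligand of the canonical branch, had a difference of 0.29 and WNT5B, a ligand of the noncanonical branch, -0.29. PORCN, which acylates WNT ligands, had -0.089 and WLS, which carries them to the surface, 0.060.

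Of 14 other receptors and co-receptors, 12 were tested, 6 in each direction, with a median of 0.036. FZD10, which is in this list, passed the filter only through siNPM1, so it carries no weight in these figures. RYK, a receptor related to kinases, stood at 56.8, 61.4 and 66.0 TPM in siNPM1 and at 42.3, 46.5 and 40.3 TPM in siControl. Its groups did not overlap, and its difference was 0.50 (95% interval 0.22 to 0.78, limma, adjusted p = 0.199). FZD5 stood at 26.5, 15.5 and 16.4 TPM in siNPM1 and at 31.0, 29.9 and 25.9 TPM in siControl, a difference of -0.58 (limma, adjusted p = 0.239) with siNPM1 replicate 1 within the siControl range. ROR2, a receptor of noncanonical WNT ligands, had a difference of 0.47 and PTK7, a co-receptor of planar polarity signalling, -0.25. In the R-spondin axis, which stabilises receptors at the surface, 4 of 9 genes were tested, with a median of 0.12. RSPO4 passed the filter only through siNPM1, so the median carries no weight for this list. RSPO4 had a difference of 0.45 and LGR4 0.13.

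Of 13 secreted inhibitors, DKK1 aside, 7 were tested, with a median of 0.25. FRZB and SFRP5 passed the filter only through siNPM1, so the median and the counts of signs carry no weight for this list. FRZB, a decoy for WNT ligands, stood at 7.60, 1.74 and 1.59 TPM in siNPM1 and at 0.580, 0.610 and 1.12 TPM in siControl, a difference of 1.17 (95% interval 0.012 to 2.32, limma, adjusted p = 0.252). The siNPM1 libraries were all higher, and siNPM1 replicate 1 was far above the other two. Without that replicate the difference was 0.60 (limma, adjusted p = 0.342). SFRP5 had a difference of 0.40 and SFRP2, the most abundant inhibitor here, -0.060.

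The dishevelled and destruction complex list had 16 tested genes, 6 positive and 10 negative, with a median of -0.055. BTRC, the ubiquitin ligase subunit that recognises β-catenin, stood at 15.2, 9.56 and 9.90 TPM in siNPM1 and at 2.35, 11.8 and 2.05 TPM in siControl. CSNK1E, a kinase acting on dishevelled, stood at 84.9, 71.8 and 74.7 TPM in siNPM1 and at 182, 64.1 and 195 TPM in siControl. In both, siControl replicate 2 lay within or beyond the siNPM1 values, and the differences of 1.28 (limma, adjusted p = 0.260) and -0.77 (limma, adjusted p = 0.318) changed sign against that replicate alone, to -0.058 and 0.26. APC, the scaffold that holds β-catenin, had 0.76 and GSK3B, its kinase, -0.40, and these also changed sign there. Against siControl replicates 1 and 3, BTRC (1.95) and APC (1.15) rose and CSNK1E (-1.28) and GSK3B (-0.63) fell, with limma's adjusted p from 0.00190 to 0.00789. Reads of CSNK1E may be shared with the read-through gene TPTEP2-CSNK1E, which the table lists separately.

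Of 14 other nuclear factors, 13 were tested with a median of 0.092. BCL9, a β-catenin coactivator, had a difference of 0.46 and the corepressor gene TLE2 0.48, while the coactivator gene CREBBP had -0.31 and TLE5 -0.17. Of 18 other feedback and target genes, 11 were tested, 4 positive and 7 negative, with a median of -0.044. NKD2, an inhibitor of dishevelled, had 0.70, CCND1, which encodes cyclin D1, 0.32, MYC -0.49 and FGF8 -0.94, all with overlapping groups. Without siControl replicate 2, the lists outside the 10 members held 9 genes past the threshold as higher and 6 as lower (limma), 20.5% of the 73 tested beside 37.0% of all genes. RYK was among the higher ones, at 0.56 (limma, adjusted p = 0.00969), and had 0.39 against siControl replicate 2 alone. FZD10 was also among the higher ones but passed the filter only through siNPM1, so its direction in this count carries no weight.

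**Figure D4:**
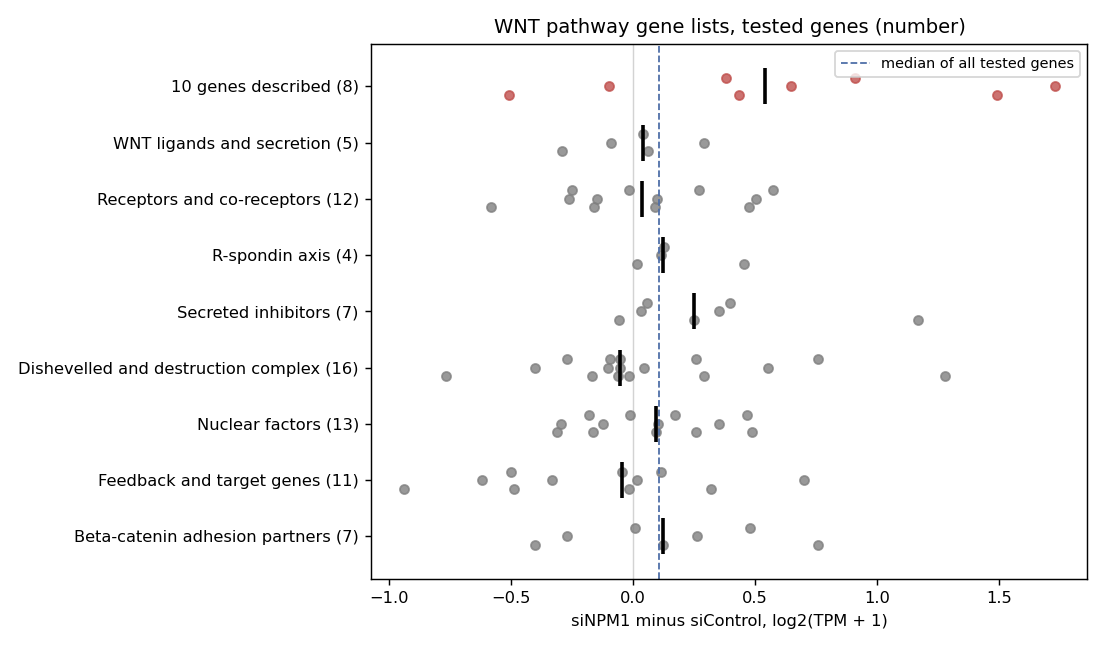
Difference between siNPM1 and siControl on the log2(TPM + 1) scale for the tested genes of the 10 described (red) and of each list of other WNT genes (grey), with the number tested in brackets, list medians as black bars and the median of all tested genes, 0.10, as a dashed line. List medians of the other genes lie between -0.055 and 0.25. The lists of receptors, R-spondin axis and secreted inhibitors include genes that passed the filter only through siNPM1.

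The 5 genes whose profile over the 6 libraries was nearest to that of LEF1 were IFI6, TBX3, PYGM, CCBE1 and PPP1R1B, by the root mean square difference of log2(TPM + 1) values centred on each gene's mean. That difference was 0.212 for IFI6, an interferon-induced gene, 0.231 for TBX3, a T-box factor gene, 0.235 for PYGM, the muscle glycogen phosphorylase, 0.265 for CCBE1 and 0.276 for PPP1R1B. TBX3 stood at 2.36, 2.96 and 3.82 TPM in siNPM1 and at 0.160, 0.490 and 0.220 TPM in siControl. CCBE1, a secreted factor of lymphatic development, stood at 2.29, 3.69 and 4.34 TPM in siNPM1 and at 0.460, 0.750 and 0.640 TPM in siControl. Their likeness to LEF1 fixed the direction of their differences and the place of siControl replicate 2, so these are descriptions only, and TBX3 and CCBE1 passed the filter only through siNPM1. None passed the threshold, with limma's adjusted p from 0.1002 for PPP1R1B to 0.168 for CCBE1.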

How the data were processed

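Total RNA of 6 H9 libraries was sequenced, 3 siNPM1 and 3 siControl by their titles. The authors deposited a table of TPM values, with GRCh38 as the build named in the submitters' processing notes. The aligner, counting tool, annotation and strand setting are not given in the sources used here. TPM sums to the same total in each library, so depth is unknown and no counting interval is given. Each column was assigned by its name.

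Values were analysed as log2(TPM + 1) with limma 3.58.1 in R 4.3.3 (variance trend, moderated two-sided test), for genes averaging 1 TPM or more, and the test was checked on simulated data. Differences are siNPM1 minus siControl. Positions come from GENCODE 29. The members and lists were chosen with earlier results of these data known. From each list, the 2 higher and 2 lower genes with the smallest p were named whether or not they passed, with the 10 members, NPM1 and the 5 genes nearest to LEF1. PRKG1-AS1, LEF1-AS1, SKP1 and the marker genes are named for overlap or as checks. Alternatives changed the pseudocount, filter, scaling, pairing, weights, minimum fold and libraries.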

Additional observations from a re-analysis of the deposited data

How the results depend on the processing

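The count of genes past the threshold, 4 with all libraries, was 1 with no filter on low values, 2 with a mean of at least 5 TPM, 9486 with array weights and 27 with siControl replicate 2 as the only control. Leaving out a library gave 1 to 5833, the highest without siControl replicate 2. Among the members the count was 0, except for 8 with array weights and 0 to 6 when a library was left out, and among all genes of the WNT lists, members included, 0 except for 51 and 0 to 21, the highest again without siControl replicate 2. Array weights gave siControl replicate 2 a weight of 0.0977, beside 4.45 for siControl replicate 1. With the replicate number as a block, 1 gene, 0 members and 0 WNT list genes passed. Same-numbered libraries deviated together with r of 0.0652, 0.0814 and -0.0383 over genes, so the numbers were not taken as pairs.

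LEF1, TCF7, TCF7L1, FZD7, FZD8, AXIN2 and CTNNB1 kept their sign under every alternative run. LEF1 ranged from 1.47 to 3.19 with adjusted p from 0.000253 to 0.516 (limma), TCF7L1 from -0.72 to -0.25 with adjusted p from 0.000353 to 0.670, FZD7 from 0.099 to 1.31, FZD8 from 0.52 to 2.29, TCF7 from 0.26 to 0.84, AXIN2 from 0.033 to 0.63 and CTNNB1 from 0.016 to 0.56. TCF7L2 changed sign when libraries were left out (-0.34 to 0.044: 0.0048 without siNPM1 replicate 2, 0.044 without siNPM1 replicate 3 and 0.0060 without siControl replicate 1) and with siControl replicate 2 as the only control (0.13). With siControl replicate 2 as the only control, WNT3 (-0.24), PORCN (0.25), PTK7 (0.13), BTRC (-0.058), APC (-0.023), GSK3B (0.054), CSNK1E (0.26), CCND1 (-0.14), MYC (0.17) and CTNND1 (0.087) also changed sign. WLS did so after centring (-0.066), quantile normalization (-0.17), array weights (-0.43), or without siNPM1 replicate 1 (-0.12) or siControl replicate 2 (-0.28), within -0.28 to 0.24 over left-out libraries. WNT5B did so with array weights (0.071) or without siNPM1 replicate 1 (-0.54 to 0.10 over left-out libraries). LGR4 did so likewise (-0.24 with array weights, -0.20 to 0.34 over left-out libraries, the lowest without siNPM1 replicate 1). PORCN did so without siControl replicate 3 (-0.26 to 0.022). SFRP2 did so after quantile normalization (0.055), rescaling with mitochondrial and ribosomal protein genes left out (0.022), array weights (0.25) or without siNPM1 replicate 1 (-0.22 to 0.27). The cause of these changes was not tested. TPM keeps no read depth, so how far counting error limits the genes under 1 TPM is unknown. NPM1 missed the threshold in 1 alternative, with an adjusted p of 0.0651.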

Other observations

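The adhesion partners of β-catenin, which hold it at cell junctions, gave 0 of 7 genes past the threshold with all libraries (limma). At an unadjusted p under 0.05, 2 were higher and 0 lower. Across all tested genes 0.0254% passed the threshold, and 13.2% were higher and 6.45% lower at an unadjusted p under 0.05. CDH1, the E-cadherin gene, was at 190, 162 and 158 TPM in siNPM1 and at 124, 119 and 121 TPM in siControl. The siControl libraries, siControl replicate 2 included, were nearly identical and all lay below siNPM1. Its difference was 0.48 (95% interval 0.22 to 0.74, limma, adjusted p = 0.198), against 0.47 without siControl replicate 2 (limma, adjusted p = 0.0207) and 0.51 against that replicate alone (limma, adjusted p = 0.446), with adjusted p from 0.00114 to 0.597 over the alternatives. CDH2, the N-cadherin gene, was at 24.8, 51.0 and 51.6 TPM in siNPM1 and at 20.1, 30.3 and 21.0 TPM in siControl (difference 0.76, limma, adjusted p = 0.250), with siNPM1 replicate 1 inside the siControl range. JUP, which encodes plakoglobin, had a difference of -0.40 and CTNND1, which encodes p120 catenin, -0.27.

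Among 36 WNT list genes under the filter, 12 higher genes and 1 lower gene showed no overlap between groups, at levels of at most 1.69 TPM. Among all 17233 genes under the filter the shares were 8.13% higher and 2.25% lower. Since the lists were chosen with earlier results of these data known, the counts are descriptions only. WNT10B and WIF1 were chosen after their values were seen. WNT10B, a canonical ligand, was listed at 1.31, 1.48 and 1.64 TPM in siNPM1 and at 0.240, 0 and 0.120 TPM in siControl. WIF1, a secreted inhibitor of WNT ligands, was at 1.68, 1.33 and 1.41 TPM in siNPM1 and at 0.090, 0.350 and 0.090 TPM in siControl. In both, siControl replicate 2 lay with the other siControl libraries. LGR5, an R-spondin receptor and the single lower one, was at 0, 0.020 and 0 TPM in siNPM1 and at 0.230, 1.01 and 0.110 TPM in siControl. These genes were not tested.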
